A study of Homo sapiens with 8 samples.

Results

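The genes described here encode enzymes and regulators of cholesterol and fatty acid synthesis. They were chosen by gene name from a written list of 31 symbols, all of which were found among the 60796 genes of the expression table. Of these, 30 reached an FPKM (a read level scaled for gene length and library size) of 1 in at least 2 of the 8 libraries and were tested, together with 13388 genes in all. FADS1 did not reach that level. FADS2 reached it only in the control and 74 3NP extract libraries of 48 h.

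Cells build cholesterol from acetyl-CoA through mevalonate, isoprenoid units, squalene and lanosterol, and build fatty acids from the same acetyl-CoA through malonyl-CoA. Both routes are under the sterol regulatory element-binding proteins (SREBPs), membrane-bound transcription factors that the escort protein SCAP carries to the Golgi for cleavage when sterols are low and that INSIG proteins hold in the endoplasmic reticulum when sterols are high. SREBP-2, encoded by SREBF2, acts mainly on cholesterol genes, and SREBP-1, encoded by SREBF1, mainly on fatty acid genes.

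The RNA came from HT-29, an established human cell line derived from a colorectal adenocarcinoma, grown in RPMI-1640 medium. The 4 groups were control cells, cells given 5-fluorouracil (5-FU, an inhibitor of thymidylate synthase that is also built into RNA), and cells given an extract of MRQ 74 rice (74 3NP extract) or of MRQ 76 rice (76 3P extract), the extracts at their IC50. Each group had 1 library at 24 h and 1 at 48 h, so 2 libraries per group and 8 in all, and the labels use the time as their batch. The treatment field of the labels names a plant extract for every sample, the control and 5-FU samples included, so groups were taken from titles and the genotype field. Not given in the sources used here were the meaning of 3NP and 3P, the dose of 5-FU and what the control cells received. Nothing ties the libraries to separate cultures, so p-values speak only of the spread among these libraries, which may be technical. In bulk RNA, fewer cells of a type and less RNA per cell cannot be told apart.

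Each library had between 18141663 and 28048517 reads on genes. Of 10 intestinal epithelial markers, 8 stood at an FPKM of 1 or more in every library. The labelled cell type is enterocyte, but of 8 markers of absorptive enterocytes only SLC5A1 reached that level in every library, no other reached it in any, and LCT, which encodes lactase, was at 0 throughout. Reads of mitochondrial genes made up 2.96% and 3.18% of the control libraries, 4.62% and 5.52% of the 5-FU libraries and 6.83% of the 76 3P extract 48 h library, and their part in the results below was not tested. The share of G and C bases at 24 h and 48 h was 51.9% and 52.3% in the control libraries and 52.1% and 53.2% with 5-FU. With the 74 3NP extract it was 53.9%, the highest, and 52.6%, and with the 76 3P extract 53.1% and 53.0%.

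RefSeq promoter windows (250 bases before the start site and 50 after it, GRCh38.p14) were at hand for 27 of the 31 genes, 39 windows in all. Windows were searched on both strands for TCACNCCAC, the core of a sterol response element, for CCAAT, the box bound by the factor NF-Y that works beside SREBPs, for GGGCGG, bound by Sp1, and for CACGTG, the E-box. The sterol core was found in the window of 1 gene, SREBF2, against 1.13% of all 35116 promoter windows. CCAAT was found in 25 of the 39 windows (64.1%, against 34.6% of all windows) and GGGCGG in 34 (87.2%, against 45%). CACGTG was found in 4 windows (10.3%, against 7.26%), those of INSIG1, LSS and SC5D. All windows came from 27305 genes, more than the 13388 tested, so these shares include genes not tested here. Some of the 39 windows overlap, as those of ACLY and of SC5D do. A match describes these letters only. The bases before the start site are shown for 3 genes: SREBF2, with the only sterol core, EBP, with the lowest adjusted p against control among the genes of the set, and SCD, the desaturase gene with the highest FPKM of the set. Capitals mark TCACNCCAC and CCAAT on either strand, so that ATTGG is CCAAT on the other strand. They span chr22:41832855-41833104, chrX:48521558-48521807 and chr10:100346983-100347232, all on the plus strand. The sterol core of SREBF2 began 133 bases before the start site and its CCAAT box 106 before. EBP had boxes beginning 191, 70 and 30 bases before the start site, and SCD had boxes 229 and 186 bases before it.
SREBF2: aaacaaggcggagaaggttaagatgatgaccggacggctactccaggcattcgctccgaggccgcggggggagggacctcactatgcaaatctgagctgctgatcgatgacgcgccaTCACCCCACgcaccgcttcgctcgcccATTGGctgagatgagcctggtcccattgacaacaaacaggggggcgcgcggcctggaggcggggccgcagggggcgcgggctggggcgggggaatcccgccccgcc
EBP: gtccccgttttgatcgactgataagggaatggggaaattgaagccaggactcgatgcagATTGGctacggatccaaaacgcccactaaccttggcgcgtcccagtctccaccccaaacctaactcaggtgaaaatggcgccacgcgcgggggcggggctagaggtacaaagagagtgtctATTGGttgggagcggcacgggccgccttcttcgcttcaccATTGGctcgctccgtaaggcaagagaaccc
SCD: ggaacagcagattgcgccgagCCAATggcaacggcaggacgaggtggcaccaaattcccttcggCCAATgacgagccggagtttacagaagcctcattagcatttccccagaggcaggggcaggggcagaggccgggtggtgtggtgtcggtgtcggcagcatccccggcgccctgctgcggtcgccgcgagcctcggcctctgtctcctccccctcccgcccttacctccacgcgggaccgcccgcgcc

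In control cells the highest levels in the set were those of fatty acid genes. ACLY, which makes cytosolic acetyl-CoA from citrate, had a mean FPKM of 58.4 over both control libraries, SCD had 52.2, and FASN, the fatty acid synthase, had 36.4. PMVK (34.1), DHCR7 (31.2) and SQLE (29.3) led the cholesterol route. The desaturases of polyunsaturated fatty acids stood lowest, FADS2 at 0.924 and FADS1 at 0.061. Neither control library was the highest of the 8 for any of the 31 genes. The control 48 h library was the lowest for 7, of which 5 were genes of the mevalonate and cholesterol steps. Every difference from control at 48 h below is taken from that library. The 74 3NP extract 48 h library was highest for 10 genes and lowest for 0, while the 5-FU 48 h library was highest for 9 and lowest for 8. Of those 9, 7 were genes of the mevalonate and cholesterol steps, and of those 8, 5 were fatty acid genes. Such counts by library were not made over all tested genes, so they cannot be read as a trait of the set.

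**Figure D1:**
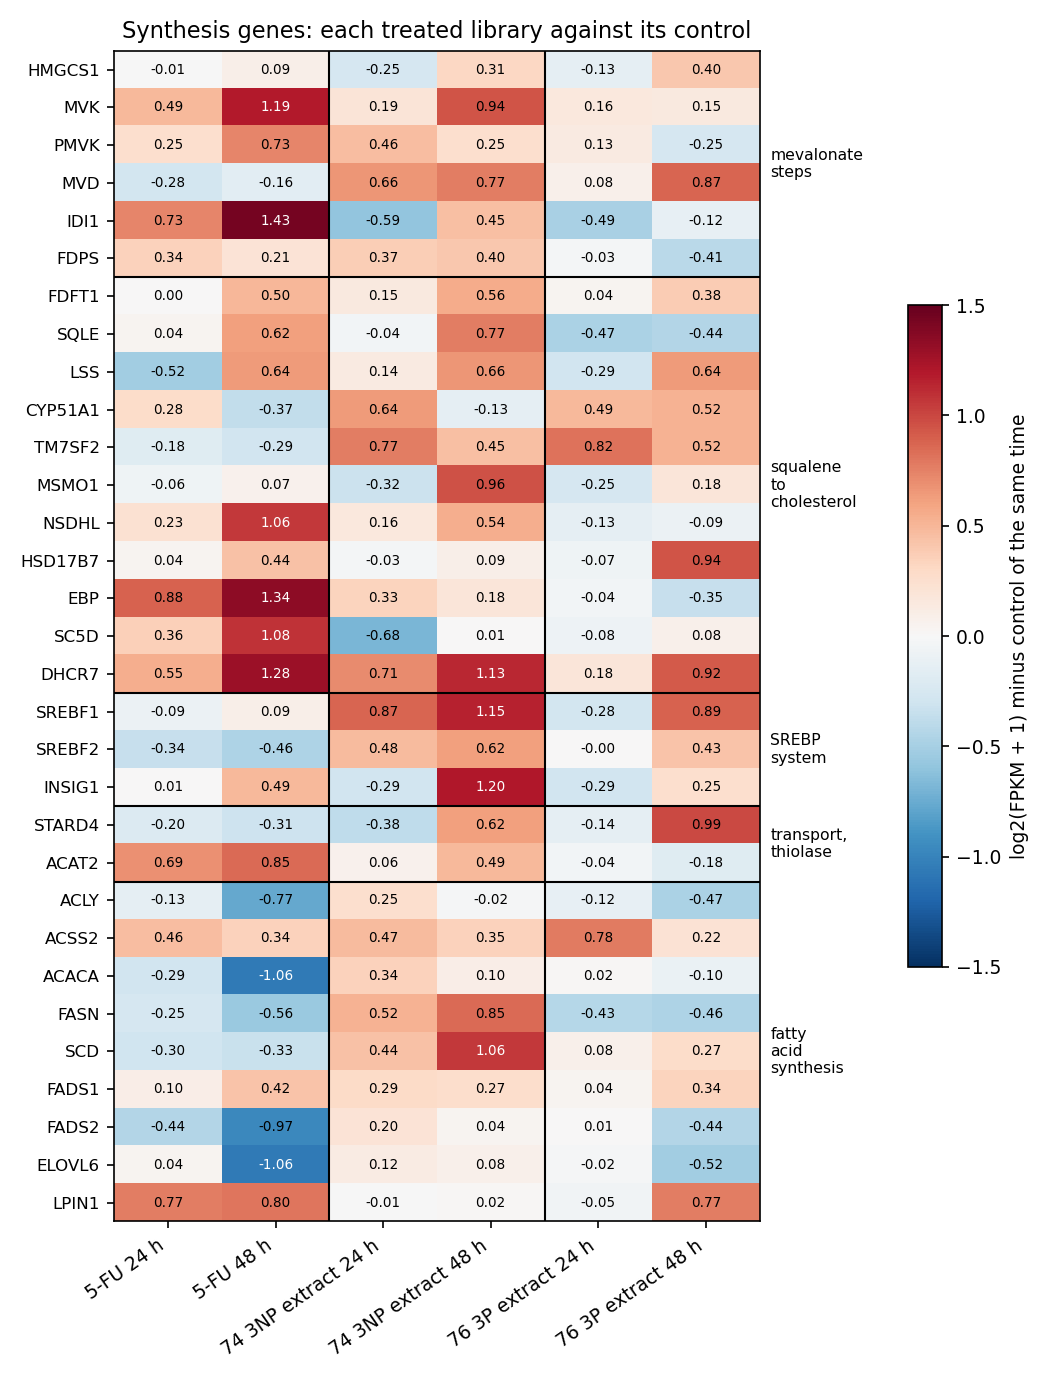
Difference in log2(FPKM + 1) between each treated library (columns) and the control library of the same time, for the 31 genes (lines) grouped by role; red is higher than control and blue lower, and the colour scale ends at 1.5 in both directions. Each cell is 1 library against 1 library; the 5-FU 48 h column shows EBP at 1.34 and IDI1 at 1.43 beside ACACA at -1.06.

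Among the mevalonate steps, IDI1, the isomerase of isopentenyl diphosphate (chr10:1039152-1049170), had FPKM 10.5 and 8.47 in the control libraries of 24 h and 48 h, 18.1 and 24.6 with 5-FU, 6.65 and 12.0 with the 74 3NP extract, and 7.19 and 7.74 with the 76 3P extract. Both 5-FU libraries lay above every other library. MVK, mevalonate kinase, had 2.60 and 2.18 in controls, 4.05 and 6.24 with 5-FU, 3.11 and 5.12 with the 74 3NP extract, and 3.01 and 2.53 with the 76 3P extract. MVD, mevalonate diphosphate decarboxylase, had 9.87 and 10.0 in controls, 7.94 and 8.89 with 5-FU, 16.2 and 17.8 with the 74 3NP extract, and 10.5 and 19.2 with the 76 3P extract. For MVD both 5-FU libraries were the lowest, and the 74 3NP extract libraries with the 76 3P extract 48 h library the highest. HMGCS1, which makes HMG-CoA, varied least of all 31 genes, from 6.20 to 8.50. PMVK, phosphomevalonate kinase, ranged from 28.0 with the 76 3P extract to 56.1 with 5-FU, both at 48 h, and FDPS, farnesyl diphosphate synthase, from 9.62 with the 76 3P extract to 17.7 with the 74 3NP extract, both at 48 h.

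Among the steps from squalene to cholesterol, EBP, the sterol isomerase of chrX:48521799-48528716, had FPKM 12.2 and 13.8 in the control libraries of 24 h and 48 h, 23.2 and 36.3 with 5-FU, 15.6 and 15.7 with the 74 3NP extract, and 11.8 and 10.5 with the 76 3P extract. SC5D, the sterol desaturase that follows EBP, had 5.47 and 4.36 in controls, 7.28 and 10.3 with 5-FU, 3.04 and 4.40 with the 74 3NP extract, and 5.14 and 4.65 with the 76 3P extract. For both genes the 5-FU libraries were the highest of all, and neither overlapped any other group. DHCR7, the last reductase of the route, had 32.0 and 30.4 in controls and was above both in every treated library, with 47.4 and 75.2 for 5-FU, 52.8 and 67.5 for the 74 3NP extract, and 36.3 and 58.3 for the 76 3P extract. TM7SF2, a sterol reductase, had 15.8 and 23.3 in controls, 13.8 and 18.9 with 5-FU, 27.7 and 32.1 with the 74 3NP extract, and 28.8 and 33.8 with the 76 3P extract. All 4 extract libraries exceeded both control and both 5-FU libraries for TM7SF2. NSDHL, a sterol dehydrogenase, ranged from 14.0 with the 76 3P extract to 32.2 with 5-FU, both at 48 h, and SQLE, squalene epoxidase, from 18.7 with the 76 3P extract to 44.5 with the 74 3NP extract, both at 48 h. FDFT1, LSS, CYP51A1, MSMO1 and HSD17B7, the remaining enzymes, had ranges of 13.3 to 20.02, 6.43 to 12.3, 1.61 to 4.09, 6.90 to 16.4 and 1.27 to 3.47.

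Of the SREBP genes, SREBF1 had FPKM 9.56 and 8.98 in the control libraries of 24 h and 48 h, 8.94 and 9.61 with 5-FU, 18.3 and 21.2 with the 74 3NP extract, and 7.73 and 17.5 with the 76 3P extract. Both 74 3NP extract libraries were above all others, and the 76 3P extract libraries lay on either side of the control. SREBF2 had 17.4 and 18.8 in controls, 13.5 and 13.4 with 5-FU, 24.6 and 29.4 with the 74 3NP extract, and 17.4 and 25.6 with the 76 3P extract, so the 5-FU libraries were lowest. INSIG1, itself a target of SREBPs, had 7.55 and 5.97 in controls, 7.59 and 8.82 with 5-FU, 5.99 and 15.0 with the 74 3NP extract, and 5.97 and 7.30 with the 76 3P extract. Its 74 3NP extract libraries thus held both one of the lower values and the highest value. STARD4, a carrier of cholesterol between membranes, was lowest with 5-FU, at 1.55, and highest with the 76 3P extract, at 5.28, both at 48 h. ACAT2, a cytosolic acetoacetyl-CoA thiolase, had 7.37 and 7.38 in controls, 12.5 and 14.2 with 5-FU, 7.71 and 10.8 with the 74 3NP extract, and 7.14 and 6.41 with the 76 3P extract.

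Among fatty acid genes, FASN had FPKM 40.8 and 32.1 in the control libraries of 24 h and 48 h, 34.0 and 21.5 with 5-FU, 58.9 and 58.7 with the 74 3NP extract, and 29.9 and 23.1 with the 76 3P extract. SCD had 54.2 and 50.1 in controls, 43.9 and 39.6 with 5-FU, 73.8 and 105.6 with the 74 3NP extract, and 57.2 and 60.6 with the 76 3P extract. ACACA, the acetyl-CoA carboxylase that makes malonyl-CoA, had 19.5 and 19.0 in controls, 15.8 and 8.62 with 5-FU, 24.9 and 20.5 with the 74 3NP extract, and 19.8 and 17.6 with the 76 3P extract. In all 3 genes both 74 3NP extract libraries were above the other 6, and the 5-FU 48 h library was the lowest. ACLY ranged from 32.3 and ELOVL6, an elongase, from 2.86 in that same 5-FU library to 72.4 and 7.51 in 74 3NP extract libraries. ACSS2, which makes acetyl-CoA from acetate, was lowest in the control 24 h library, at 9.52, and highest in the 76 3P extract 24 h library, at 17.0. LPIN1, a phosphatidate phosphatase of triglyceride synthesis and so a neighbour of the fatty acid steps, had 1.68 and 1.49 in controls, 3.58 and 3.33 with 5-FU, 1.65 and 1.53 with the 74 3NP extract, and 1.58 and 3.26 with the 76 3P extract. FADS2 rested on few reads with 5-FU, 29 and 34, against 117 and 323 in controls, and FADS1 was listed between 0.045 and 0.445.

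**Figure D2:**
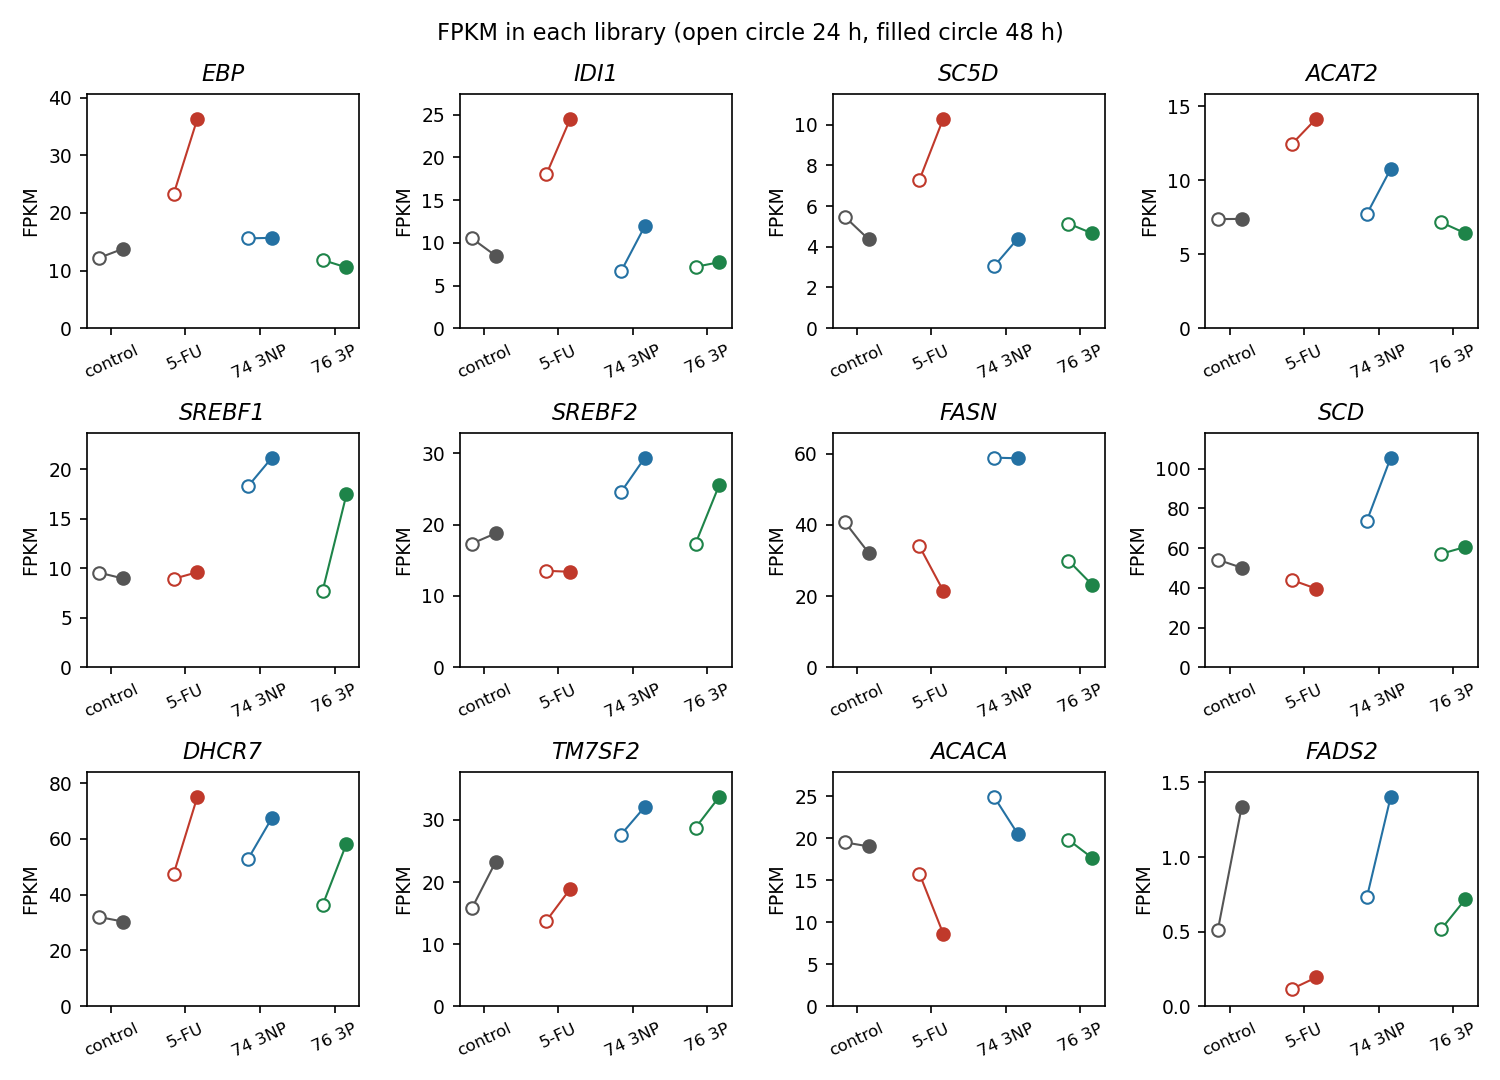
FPKM (vertical axes, from 0) of 12 genes in each of the 8 libraries, by treatment; open circles are 24 h, filled circles 48 h, and a line joins the libraries of a treatment. EBP, IDI1 and SC5D are highest in the 5-FU libraries, and FASN, SCD and ACACA are highest in the 74 3NP extract libraries.

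Some reads could belong to neighbours, since no source used here gives the use of strand in counting. ACAT2 overlaps TCP1 and SOD2, ACACA overlaps C17orf78, MVK overlaps MMAB, SREBF1 overlaps RAI1 and ACSS2 overlaps GGT7 on the opposite strand, CYP51A1 overlaps AC000120.3 and AC000120.4, FADS2 overlaps FEN1, TM7SF2 overlaps VPS51 and ZNHIT2, EBP overlaps AF196969.1, and FADS1 overlaps FADS2. Some other genes of the set overlap non-coding antisense genes. HSD17B7 has pseudogenes with an FPKM of up to 1.67, and the gene itself started from 1.27, so its values are uncertain. Named pseudogenes of FDPS, IDI1 and CYP51A1 had 0.342 at most.

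The first comparison asked how 5-FU, an established drug for colorectal cancer, changed these genes against control. EBP and IDI1 rose with 5-FU. In log2(FPKM + 1), averaged over both times, EBP was higher by 1.11 (SE 0.23, limma adjusted p = 0.039, n = 2 libraries against 2) and IDI1 by 1.08 (SE 0.26, limma adjusted p = 0.0499). At each time 1 library stood against 1: EBP differed by 0.88 at 24 h and 1.34 at 48 h, and IDI1 by 0.73 and 1.43. Those 2 were the genes called higher of 30 tested, where 2.51% of all tested genes were called higher, and 0 were called lower, where 3.02% of all were. Without adjustment 10 of the 30 (33.3%) had a limma p under 0.05, against 29% of all genes. FADS2 was among the 10, though it entered the test partly through the control 48 h library, where it is high.

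In all, 19 of the 30 genes stood higher with 5-FU (63.3%, against 50.3% of all tested genes) and 11 lower (36.7%, against 49.7%). By role, 14 of the 17 mevalonate and cholesterol step genes stood higher with 5-FU and 3 lower, with a median difference of 0.28, and the median over all tested genes was 0.00. Members that did not pass included DHCR7 at 0.92 (SE 0.24), MVK at 0.84 (SE 0.25), SC5D at 0.72 (SE 0.23) and NSDHL at 0.64 (SE 0.24). The fatty acid genes had the opposite balance, with 6 of 8 lower and a median of -0.43, and none passed. ACACA stood at -0.67 (SE 0.23) and ELOVL6 at -0.51 (SE 0.28), while LPIN1 stood at 0.79 (SE 0.25). FADS2 entered the test only through the control and 74 3NP extract libraries of 48 h, where it is high. Its value of -0.70 is thus a description. Without it 10 of 29 genes stood lower, and 5 of 7 fatty acid genes did, with a median of -0.41. The fatty acid median was -0.19 at 24 h and -0.67 at 48 h, and ACACA was at 0.453 of its control level at 48 h (exact 95% interval 0.43 to 0.478, counting error only). SREBF1 differed by 0.00 (SE 0.28) and SREBF2 by -0.40 (SE 0.21), and of the other genes ACAT2 stood at 0.77 (SE 0.20).

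Groups did not overlap for 15 genes that were higher with 5-FU, 50% of the 30, against 32.7% of all tested genes, and for 7 that were lower (6 without FADS2), 23.3% against 29.9%. A difference of at least 1.5-fold in the same direction at both times was seen higher for 4 genes, EBP, IDI1, ACAT2 and LPIN1, against 6.4% of all genes, and lower for 0, against 5.56%. With FPKM scaled to total reads in place of the authors' scaling, 15 of the 30 genes stood higher in place of 19. That scaling moved the median of the 30 genes from 0.15 to 0.05 and that of all tested genes from 0.00 to -0.09. The cholesterol and mevalonate genes higher numbered 11 in place of 14, while the fatty acid split was 2 higher and 6 lower under both. The count of 2 called genes fell to 0 without the control 24 h, control 48 h, 5-FU 48 h, 74 3NP extract 24 h or 74 3NP extract 48 h library, was 6 without the 5-FU 24 h library and 4 without either 76 3P extract library, and was 1, EBP, without the replicate block of time.

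The second comparison asked what the 74 3NP extract did against the same control libraries, so its differences share those controls with the other treatments. Of 30 genes 28 stood higher (93.3%, against 46.4% of all tested genes) and 2, IDI1 and SC5D, lower (against 53.5%), but 0 passed the limma test in either direction, where 0.0523% of all tested genes were called higher and 0% lower. The median difference was 0.35, against -0.03 over all tested genes. At 24 h 21 of the 30 stood higher, with a median of 0.19, against -0.02 over all tested genes. At 48 h 28 did, with a median of 0.47, against -0.03. Without FADS2, which entered the test only through the control and 74 3NP extract libraries of 48 h, 27 of 29 stood higher. Without adjustment 8 of 30 had p under 0.05, against 12.1% of all. The largest differences were those of SREBF1 at 1.01 (SE 0.28, limma adjusted p = 0.259), DHCR7 at 0.92 (SE 0.24, adjusted p = 0.238), SCD at 0.75 (SE 0.23, adjusted p = 0.287), MVD at 0.71 (SE 0.23, adjusted p = 0.307) and FASN at 0.69 (SE 0.22, adjusted p = 0.298). In a limma fit to only the 4 libraries compared, 7 of the set passed, all higher: SREBF1, SREBF2, SCD, FASN, MVD, TM7SF2 and DHCR7. Of all tested genes 1344 passed there, in place of 7. In that fit a gene's own spread comes only from how its difference changed between 24 h and 48 h. Such fits called 1203 of all tested genes for 5-FU and 288 for the 76 3P extract, in place of 740 and 0.

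The mevalonate steps had a median of 0.37, the steps from squalene to cholesterol 0.35 and the SREBP system 0.55. The fatty acid genes had 0.17, and 0.22 without FADS2. Differences had the same sign at both times for 19 genes (63.3%, FADS2 among them), all of them higher. Of all tested genes 33% were higher at both times and 38.4% lower. Groups did not overlap for 16 genes higher (53.3% of 30, against 25.9% of all) and 0 lower (against 29.8% of all). The remaining genes had opposite signs at 24 h and 48 h. INSIG1 stood at -0.29 at 24 h and 1.20 at 48 h, MSMO1, the sterol methyl oxidase, at -0.32 and 0.96, and IDI1 at -0.59 and 0.45. For INSIG1 the ratio of 1 library to 1 control library was 0.794 at 24 h (exact 95% interval 0.699 to 0.901) and 2.51 at 48 h (2.25 to 2.79), and these intervals cover counting error only.

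The differences with the 74 3NP extract went with base composition. Across the 30 genes, the GC content of a gene's transcripts and its difference had Pearson's r = 0.69 and Spearman's rho = 0.65, and across 13228 tested genes r = 0.44. These are correlations across genes of the same 4 libraries, and genes are not independent replicates. Across all tested genes r was also 0.29 for the 76 3P extract against control, 0.27 for 48 h against 24 h and 0.15 for 5-FU against control. Across the 30 genes it was 0.12 for the 76 3P extract against control. For the 74 3NP extract it was 0.46 against the 76 3P extract and 0.42 against 5-FU. SREBF1 (63.5% GC), MVD (64.1%), FASN (65.3%) and TM7SF2 (62.9%) are rich in G and C, and SC5D (37.4%) is poor in them. Corrected for gene length and GC content, 29 of 30 genes stood higher, with a median of 0.32, and 0 were called. The corrected differences were 0.78 for SREBF1, 0.43 for MVD and for FASN, and 0.33 for TM7SF2, which had stood at 0.61. PMVK went from 0.36 to 0.13 and EBP from 0.25 to 0.09, and SC5D from -0.33 to 0.02. Other differences grew, among them those of SCD from 0.75 to 0.82, MSMO1 from 0.32 to 0.56 and SQLE from 0.37 to 0.55.

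**Figure D3:**
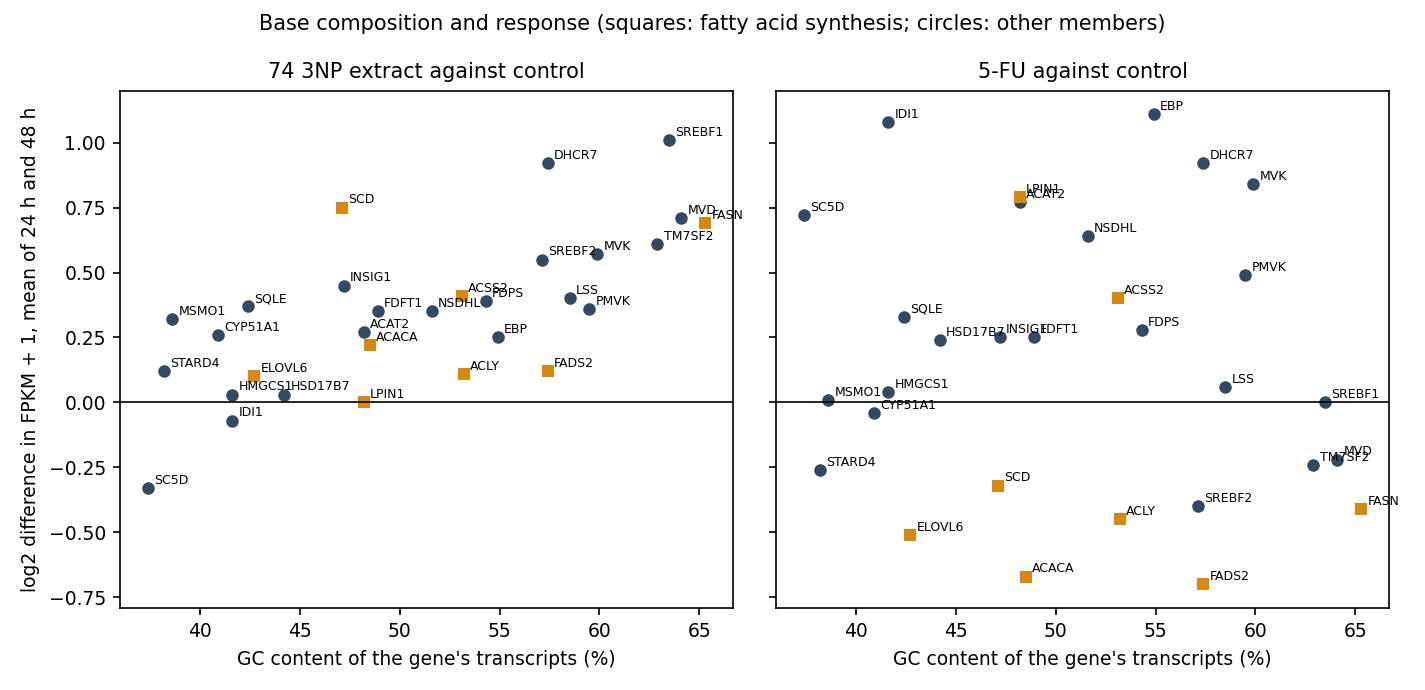
Difference in log2(FPKM + 1) against control, mean of both times (vertical axis), against the GC content of the gene's transcripts in percent (horizontal axis), for the 30 tested genes with the 74 3NP extract (left) and 5-FU (right); squares are fatty acid genes and circles the others. The points climb from SC5D to SREBF1 on the left (r = 0.69) and show no such slope on the right (r = -0.11).

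With the 76 3P extract 16 of 30 genes stood higher than control (53.3%, against 44.7% of all tested genes) and 14 lower (46.7%, against 55.3%), and the median difference was 0.07, against -0.05 over all tested genes. None passed the limma test, where 0% of all tested genes were called in either direction, and 2, TM7SF2 and ACSS2, had an unadjusted p under 0.05, against 17.6% of all. TM7SF2 stood at 0.67 (SE 0.19, limma adjusted p = 0.154), DHCR7 at 0.55 (SE 0.24), CYP51A1, the lanosterol demethylase, at 0.51 (SE 0.25) and ACSS2 at 0.50 (SE 0.20). Lowest were SQLE at -0.45 (SE 0.25) and FASN at -0.44 (SE 0.22). Without FADS2, 13 of 29 genes stood lower. Groups did not overlap for 7 genes higher (against 22.4% of all) and 7 lower (against 30.2%). The 17 mevalonate and cholesterol genes had 24 h medians of 0.23 with 5-FU, 0.16 with the 74 3NP extract and -0.04 here. At 48 h the same medians were 0.62, 0.45 and 0.18, and -0.01, -0.03 and -0.1 over all tested genes. The part of the shared control 48 h library in these medians was not tested.

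Several genes stood further from control in the 76 3P extract 48 h library than in that of 24 h. STARD4 stood at 0.99 at 48 h and -0.14 at 24 h, HSD17B7, a ketosteroid reductase, at 0.94 and -0.07, SREBF1 at 0.89 and -0.28, and LPIN1 at 0.77 and -0.05. The ratio to control at 48 h was 2.44 for STARD4 (exact 95% interval 2.13 to 2.80) and 1.95 for SREBF1 (1.84 to 2.06). At 24 h SREBF1 was below control, with a ratio of 0.808 (0.757 to 0.863), and these intervals cover counting error only. This library also had the highest share of mitochondrial reads, given above, and the part of that share in these values was not tested.

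The 2 extracts were compared with each other at matched times. None of the 30 genes passed, where 0% of all tested genes were called, and 5 had an unadjusted p under 0.05 in limma, against 12.9% of all. FASN was the farthest apart, higher with the 74 3NP extract by 1.13 (SE 0.22, 95% interval 0.63 to 1.63, limma adjusted p = 0.142), with 0.95 at 24 h and 1.31 at 48 h. SQLE stood higher by 0.82 (95% interval 0.24 to 1.40), SREBF1 by 0.70 (0.06 to 1.35), FDPS by 0.61 (0.17 to 1.05) and SCD by 0.58 (0.05 to 1.10). In all, 22 genes stood higher with the 74 3NP extract (73.3%, against 53.3% of all tested genes) and 8 lower (26.7%, against 46.7%). The median was 0.35, against 0.03 over all tested genes. FADS2 entered the test partly through the 74 3NP extract 48 h library, where it is high, and without it 21 of 29 stood higher. Groups did not overlap for 14 genes higher with the 74 3NP extract (46.7%, 13 without FADS2, against 22.9% of all). They did not overlap for 1 lower, SC5D (3.33%, against 19.1%). TM7SF2 differed by -0.06 (95% interval -0.51 to 0.38), so its difference between the extracts was not detectable beyond that interval.

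Set against 5-FU, the 74 3NP extract gave the most calls in the set. FASN was higher with the extract by 1.09 (SE 0.22, limma adjusted p = 0.0269), SCD by 1.07 (SE 0.23, adjusted p = 0.0312), SREBF2 by 0.95 (SE 0.21, adjusted p = 0.0316), MVD by 0.93 (SE 0.23, adjusted p = 0.042), ACACA by 0.89 (SE 0.23, adjusted p = 0.0452) and TM7SF2 by 0.84 (SE 0.19, adjusted p = 0.0357). IDI1 was lower, at -1.15 (SE 0.26, adjusted p = 0.0331), as were SC5D at -1.05 (SE 0.23, adjusted p = 0.0319) and EBP at -0.85 (SE 0.23, adjusted p = 0.0489). These were 6 genes called higher of 30, against 6.1% of all tested genes, and 3 called lower, against 4.69%. In each of the 9 genes the groups did not overlap, which follows largely from picking them by p-value in these same libraries. Among the 30, groups did not overlap for 10 genes higher (33.3%, 9 without FADS2, against 27.9% of all). They did not overlap for 6 lower (20%, against 31.1%). An unadjusted p under 0.05 in limma was found for 14 genes (46.7%, against 31.9% of all). FADS2 was among them, though it entered the test partly through the 74 3NP extract 48 h library, where it is high. Of the 30, 20 stood higher than with 5-FU (66.7%, against 47.2% of all) and 10 lower (33.3%, against 52.8%). Without FADS2, 19 of 29 stood higher. SREBF1 stood at 1.01 (SE 0.28, adjusted p = 0.0541), and DHCR7, above control with both agents, differed by 0.00 (95% interval -0.55 to 0.55).

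The fatty acid genes had a median of 0.71 in this comparison, with 7 of 8 higher and 3 called, and LPIN1 at -0.78. Without FADS2, 6 of 7 stood higher, with a median of 0.61. The 17 mevalonate and cholesterol genes were split, 9 higher and 8 lower, with a median of 0.00. Of the 9 calls, 6 remained after the correction for length and GC content: SCD, SREBF2, ACACA, TM7SF2, IDI1 and EBP. The other 3 did not pass after it, with FASN at 0.71 (limma adjusted p = 0.0784), MVD at 0.74 (adjusted p = 0.0676) and SC5D at -0.97 (adjusted p = 0.0548). The count fell to 0 without the 5-FU 48 h, 74 3NP extract 24 h or 74 3NP extract 48 h library, to 1 without the control 24 h library and to 2 without the control 48 h library, and was 5 without the replicate block.

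**Figure D4:**
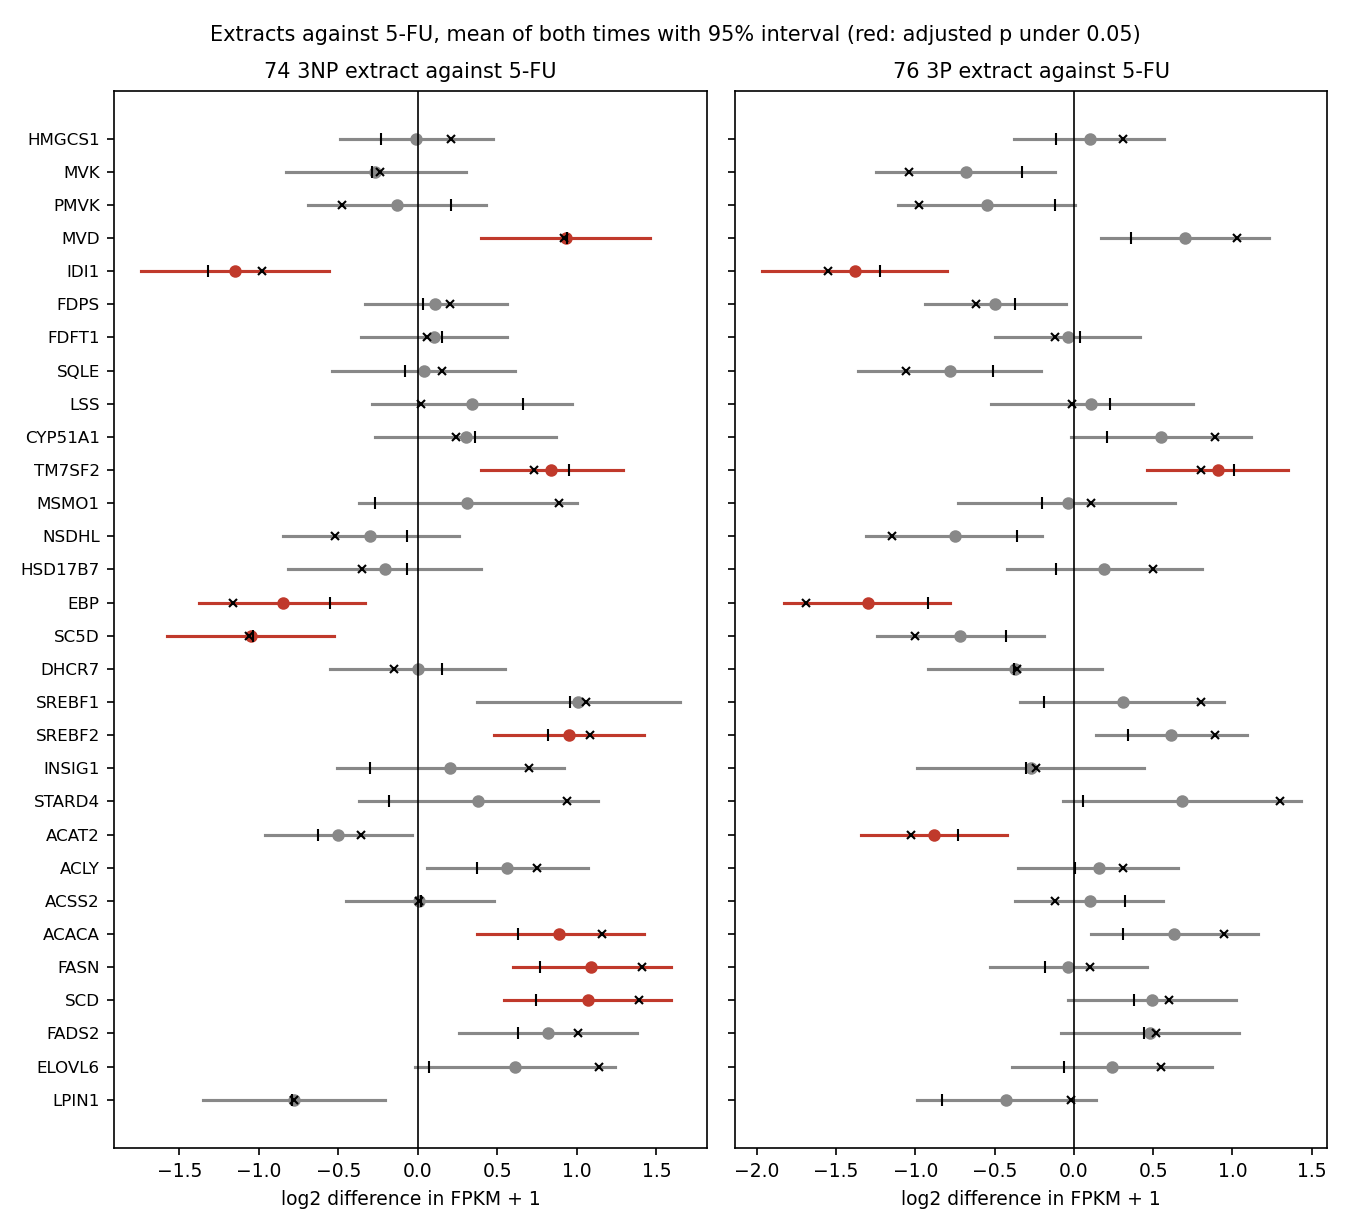
Differences in log2(FPKM + 1) of the 30 tested genes between the 74 3NP extract and 5-FU (left) and the 76 3P extract and 5-FU (right); dots are means of both times with 95% intervals from limma, red where the adjusted p was under 0.05, and a bar and a cross mark the differences at 24 h and 48 h. The left panel has 9 red genes and the right panel 4, with IDI1, EBP and TM7SF2 red in both.

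With the 76 3P extract, IDI1 was lower than with 5-FU by a difference of -1.38 (SE 0.26, limma adjusted p = 0.0145), EBP by -1.30 (SE 0.23, adjusted p = 0.0123) and ACAT2 by -0.88 (SE 0.20, adjusted p = 0.0242). TM7SF2 was higher, at 0.91 (SE 0.19, adjusted p = 0.0206). These were 1 gene called higher, against 8.78% of all tested genes, and 3 called lower, against 10.5%, so the share called was near or under that of all genes. An unadjusted p under 0.05 was found for 12 genes (40%, against 38.3% of all). Groups did not overlap for 8 genes higher (against 26.9% of all) and 11 lower (against 31.3%). Genes short of the test included SQLE at -0.78 (SE 0.25), NSDHL at -0.75 (SE 0.24), MVD at 0.70 (SE 0.23) and SREBF2 at 0.61 (SE 0.21). The split of 15 higher (against 47.8% of all) and 15 lower (against 52.2%) became 18 and 12 with scaling to total reads, which moved the median of all tested genes by 0.11. Without the 5-FU 48 h or the 76 3P extract 48 h library 0 were called, and 9 and 8 were called without the 24 h libraries of 5-FU and of the 76 3P extract. Both extracts share the 5-FU libraries in these comparisons.

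Between 24 h and 48 h, over all treatments, 0 of 30 genes passed, where 0% of all tested genes were called, and 20 stood higher at 48 h (66.7%, against 48.4% of all) and 10 lower (against 51.6%). Without FADS2, which reached the filter level only in 48 h libraries, 19 of 29 stood higher at 48 h. An unadjusted p under 0.05 in limma was found for 3 (10%), near the 10.4% of all. These were ACLY at -0.44 (SE 0.16, limma adjusted p = 0.421), DHCR7 at 0.40 (SE 0.17) and TM7SF2 at 0.35 (SE 0.14), as 48 h minus 24 h. ACLY was lower at 48 h within each of the 4 treatments, and TM7SF2 was higher at 48 h within each. DHCR7 stood at -0.07 in control, against 0.66 with 5-FU, 0.35 with the 74 3NP extract and 0.67 with the 76 3P extract.

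Other genes of the pathway numbered 71 in 5 lists, of which 65 were tested. With 5-FU against control 2 rose, where 2.51% of all tested genes were called higher, and 0 were called lower, where 3.02% were. They were AGPAT2, an acyltransferase of phospholipid and triglyceride synthesis, by 1.06 (SE 0.22, limma adjusted p = 0.0409) and PDSS1, an enzyme of the side chain of coenzyme Q, by 1.00 (SE 0.17, adjusted p = 0.0305). With either extract against control 0 passed. The median of the 65 genes was -0.03 with 5-FU, -0.02 with the 74 3NP extract and 0.06 with the 76 3P extract, against 0.00, -0.03 and -0.05 over all tested genes.

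Among the 11 genes of SREBP processing 0 passed against control with any treatment. SCAP had FPKM 18.8 and 21.1 in controls, 18.2 and 20.04 with 5-FU, 25.9 and 21.8 with the 74 3NP extract, and 25.6 and 24.1 with the 76 3P extract. UBE2G2, a ubiquitin-conjugating enzyme of the endoplasmic reticulum, stood at -0.76 (SE 0.21) with 5-FU. SEC24D, a coat protein of vesicles that leave the endoplasmic reticulum, stood at 1.28 (SE 0.28, limma adjusted p = 0.109) with the 76 3P extract. Of genes of cholesterol export, ABCG1, a sterol exporter, stood at 1.25 (SE 0.28, adjusted p = 0.112) with the 76 3P extract and 0.57 (SE 0.28) with the 74 3NP extract. NR1D1, a nuclear receptor of the circadian clock, stood at 1.64 (SE 0.40, limma adjusted p = 0.0504) with 5-FU. SMPDL3A, a phosphodiesterase gene, stood at 0.98 (SE 0.33) with 5-FU, and was lower with the extracts than with 5-FU, at -1.45 (SE 0.33, limma adjusted p = 0.0355) for the 74 3NP extract and -1.16 (SE 0.33, adjusted p = 0.0439) for the 76 3P extract. Of genes of uptake and storage, TMEM97, a binding partner of the transporter NPC1, stood at -1.34 (SE 0.27, adjusted p = 0.09) with the 76 3P extract, and SCARB1, a lipoprotein receptor, at 0.68 (SE 0.19, adjusted p = 0.26) with the 74 3NP extract. MLXIPL, a glucose-responsive transcription factor of lipid synthesis, stood at 1.27 (SE 0.32) with the 74 3NP extract and 1.58 (SE 0.32) with the 76 3P extract, and was higher than with 5-FU by 1.67 (adjusted p = 0.0242) and 1.98 (adjusted p = 0.00991). Against 5-FU, 3 of the 65 were called higher with the 74 3NP extract and 1 lower, where 6.1% and 4.69% of all tested genes were. With the 76 3P extract 7 were called higher than with 5-FU and 6 lower, where 8.78% and 10.5% of all tested genes were.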

How the data were processed

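Gene expression was read from a deposited table of FPKM for 60796 genes in 8 HT-29 libraries. HISAT2 2.0.5 was the mapper and GRCh38 (hg38) the build, per the submitters' processing notes, after quality filtering, per the labels. Not given in the sources used here were the counting tool, annotation and library layout. A second deposited table holds counts of sequenced and filtered reads (44361052 to 68674126 filtered) and percent GC per library, per the file headers. FPKM times gene length gave whole reads for 100% of values within 0.01 reads, and the authors' denominators matched median-ratio size factors, not library totals. Such reads give exact 95% intervals that cover counting error only.

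The fit took genes that had an FPKM of at least 1 in 2 or more libraries and used log2(FPKM + 1), which understates changes of low genes, in limma 3.58.1 (R 4.3.3). Treatment and time were additive terms with a variance trend (3 residual degrees of freedom, median prior 5.39), so the spread is how treatment differences vary between times, pooled over all treatments. Tests were two-sided over 7 contrasts, adjusted by Benjamini-Hochberg over 13388 genes at 0.05. Replicate numbers are the times, which the labels call batches, and time is therefore the replicate block. The scripts were tested on simulated data. Members and lists were chosen with earlier results of these data known, and the rule for named genes was every member and, from each further list, up to 4 genes among those with the largest differences. Alternatives were pseudocounts of 0.1 and 5, no filter, a filter at FPKM 5, scaling to total reads, quantile normalization, voom on recovered reads, only the 4 libraries compared, no replicate block and each library left out. A loess correction for GC content (13228 genes with a value) and length was added after seeing the data. Some genes of these routes are not reported here. Promoters are from RefSeq. Tables and figures were made in Python 3.11.15 (numpy 2.4.6, pandas 2.3.3, matplotlib 3.10.9, scipy 1.17.1).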

Additional observations from a re-analysis of the deposited data

Results flagged for a closer look

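In 13 instances an extract and 5-FU differed in their effect against the same controls, by the limma test of extract against 5-FU. For the 74 3NP extract 20% of the set was called higher and 10% lower, against 6.1% and 4.69% of all tested genes. For the 76 3P extract 3.33% was called higher and 10% lower, against 8.78% and 10.5%, so near or under the share of all genes. IDI1, EBP and TM7SF2 count once for each extract, and both extracts share the 5-FU libraries. With the 74 3NP extract the differences from 5-FU were 1.09 for FASN, 1.07 for SCD, 0.95 for SREBF2, 0.93 for MVD, 0.89 for ACACA and 0.84 for TM7SF2, and -1.15 for IDI1, -1.05 for SC5D and -0.85 for EBP. With the 76 3P extract they were 0.91 for TM7SF2, and -1.38 for IDI1, -1.3 for EBP and -0.88 for ACAT2. All are in log2(FPKM + 1) as extract minus 5-FU, over 2 libraries against 2, and the adjusted p-values are given with each comparison above. After a GC and length correction FASN, MVD and SC5D no longer passed. The causes of these differences were not tested.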

How the results depend on the processing

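Counts of called genes depended on the setting. For 5-FU against control the 2 calls became 1 with a pseudocount of 0.1 or 5, with scaling to total reads, with quantile normalization and without the replicate block (EBP in each), 4 with a filter at FPKM 5 and 0 with no filter. Without 1 library they ranged from 0 to 6. For the 74 3NP extract against control the 0 calls became 7 in the fit to only the 4 libraries compared. Calls among all tested genes went from 7 to 1344 there. For the 74 3NP extract against 5-FU the 9 calls became 0 with no filter and 5 with no replicate block, and ranged from 0 to 11 without 1 library. For the 76 3P extract against 5-FU the 4 calls became 0 with no filter, 7 with a filter at FPKM 5 and 8 with voom, and ranged from 0 to 9 without 1 library. With no filter 0 of all genes were called in any comparison, where 740, 1445 and 2587 had been called in these comparisons with 5-FU. The causes of these shifts were not tested. Where a group is left with 1 library, that library is assumed to vary like the others. Of 823 values of single genes under an alternative, in 46 pairs of gene and comparison, 681 kept direction and side of the threshold, 97 kept direction and lost the call, 45 gained it and none reversed. The 46 pairs were those called, or at least 1.5-fold apart in FPKM + 1, before any alternative. A reversal was therefore unlikely from the start, and a pair not called at first counted as kept where it stayed uncalled. FADS2 rested on 29 and 34 reads with 5-FU, and FADS1 did not reach the filter.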
